A study of Homo sapiens with 6 samples.

Results

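Solitary END-seq peaks inside protein-coding genes are described here, split by the strand of the gene, the strand of the peak, the position along the gene and the time of treatment. A member is a strand-specific peak that overlapped a peak of the same strand in the other replicate of its time by at least 1 bp, with none of the opposite strand, equally replicated, nearer than 150 bp. Its midpoint had to lie in exactly 1 protein-coding gene of chromosomes 1 to 22 (hg19), over 10 kb from the 5′ end of that gene and over 5 kb from the 3′ end. There were 64212 members at 10 min and 38538 at 20 min, 102750 of the 277527 solitary peaks on these chromosomes. The samples were HCT116 cells, an established human colorectal carcinoma line of epithelial origin, treated with 10 µM camptothecin for 10 min (CPT10) or 20 min (CPT20), with 2 replicates each. Untreated cells (Ctrl, 2 replicates) entered as the input that the authors named in peak calling and were not analysed here, so no background from untreated cells can be set beside these values. In the sample names 10 and 20 stand before µM, but the protocol states a single dose and times of 10 and 20 min, and it was followed. The identity of the cells cannot be checked from positions of breaks.

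END-seq ligates an adapter to free DNA ends in cells embedded in agarose and sequences away from the end. A DNA end whose duplex continues to the right gives a forward peak, and an end whose duplex continues to the left gives a reverse peak. A double-strand break with both ends captured leaves a reverse and a forward peak side by side, whereas a single captured end leaves a solitary peak. Camptothecin traps topoisomerase I, the enzyme that relaxes supercoiled DNA in front of RNA polymerase and replication forks, while it is joined to the broken strand. As background, a replication fork that runs into such a nick can end as a single-ended break, and transcription over a trapped enzyme can also lead to breaks.

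The strongest members are shown first, because their sequence bears on how they are read. For each time and peak strand members were ranked by −log10 q in each library, and the 3 genes whose poorer rank was best are given, with 1 member per gene. The sequences are from GRCh37, the same build as hg19, read 5′ to 3′ on the strand of the peak. Each begins 20 bases before the adapter-side edge of the peak in the library with the better match, which is the left edge of a forward peak and the right edge of a reverse peak, and runs 40 bases from it, or 10 where an exon overlaps. Capitals mark bases equal to the commonest base at that position, over the 13 bases before the edge, in the 67 members with edges within 1 bp of each other among the 200 members of highest −log10 q. That commonest sequence was GCTCTTCCGATCT, and the same letters end the adapter oligonucleotides in the study's methods.
DCBLD2 (chr3:98597878-98597937, plus strand, intron, 10 min): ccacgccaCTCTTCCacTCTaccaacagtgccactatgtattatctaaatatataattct
CELF5 (chr19:3282326-3282355, plus strand, exon, 10 min): ccatgaccCTCTTCCGcTCTgcagggctgc
PDE6A (chr5:149246772-149246801, plus strand, exon, 10 min): tcgggctGCTCTTCCGATCTccccaactgc
FRAS1 (chr4:79072896-79072955, minus strand, intron, 10 min): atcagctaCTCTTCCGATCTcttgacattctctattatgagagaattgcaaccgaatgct
CAMTA1 (chr1:7243738-7243797, minus strand, intron, both times): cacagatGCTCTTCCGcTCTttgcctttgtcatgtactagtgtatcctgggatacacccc
SNED1 (chr2:242007845-242007904, minus strand, intron, both times): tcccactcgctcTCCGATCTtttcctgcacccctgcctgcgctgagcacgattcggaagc
SLIT3 (chr5:168590817-168590876, plus strand, intron, 20 min): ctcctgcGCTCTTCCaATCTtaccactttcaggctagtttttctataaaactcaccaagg
TMEM273 (chr10:50374930-50374959, minus strand, exon, 20 min): gacgacgaCTCTTCCGAcCTgaaaagcacg

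The match was 13 of 13 bases in PDE6A, which encodes a subunit of the phosphodiesterase of rod photoreceptors, and 12 in FRAS1, a gene of a basement membrane protein. It was also 12 in CAMTA1, which encodes a calmodulin-binding transcription activator, and in SLIT3, the gene of a secreted guidance ligand. It was 11 in CELF5, an RNA-binding protein gene, and in TMEM273, 10 in the receptor-like gene DCBLD2 and 8 in SNED1, which encodes a matrix protein. DCBLD2 and PDE6A were named at 20 min as well, where the edge had 4 and 5 of the 13 bases. Those edges lay elsewhere than the ones printed for 10 min. In DCBLD2 they were at 98597802 and 98597889 in replicates 1 and 2, against 98597898. In PDE6A they were at 149246778 and 149246657, against 149246792. The edges of both replicates lay on the same base in PDE6A, FRAS1, CAMTA1 and SNED1 at 10 min, but 430 bp apart in DCBLD2 and 427 bp apart in CELF5. These peaks were far above the rest of the members. The fold enrichment over the expected height was 95.9 and 182 in replicates 1 and 2 for FRAS1 at 10 min, 109 and 97.3 for CAMTA1, and 83.5 and 73.3 for PDE6A. The median member had a fold of 4.98 and 4.61 at 10 min and of 5.00 and 4.84 at 20 min in replicates 1 and 2. Sequence like that of the adapter thus stood before most of the strongest members.

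Across all members, 527 of 64212 at 10 min (0.821%) and 284 of 38538 at 20 min (0.737%) had at least 9 of these 13 bases before the edge in either library. At the opposite, sheared edge of the same peaks the share was 0.227% and 0.247%. The share rose with strength. It was 0.680% where the lower of the 2 libraries' −log10 q was under 5 and 75.6% (34 of 45 members, 95% Wilson interval 61.3 to 85.8%) where it was 50 or more at 10 min. At 20 min the values were 0.643% and 80% (12 of 15, 54.8 to 93.0%). The limit of 9 bases was chosen after the sequences had been seen, and the part of this sequence in the peak calls was not tested. Leaving these members out changed the orientation described below from an odds ratio of 1.56 to 1.57 at 10 min and from 1.62 to 1.63 at 20 min.

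**Figure D1:**
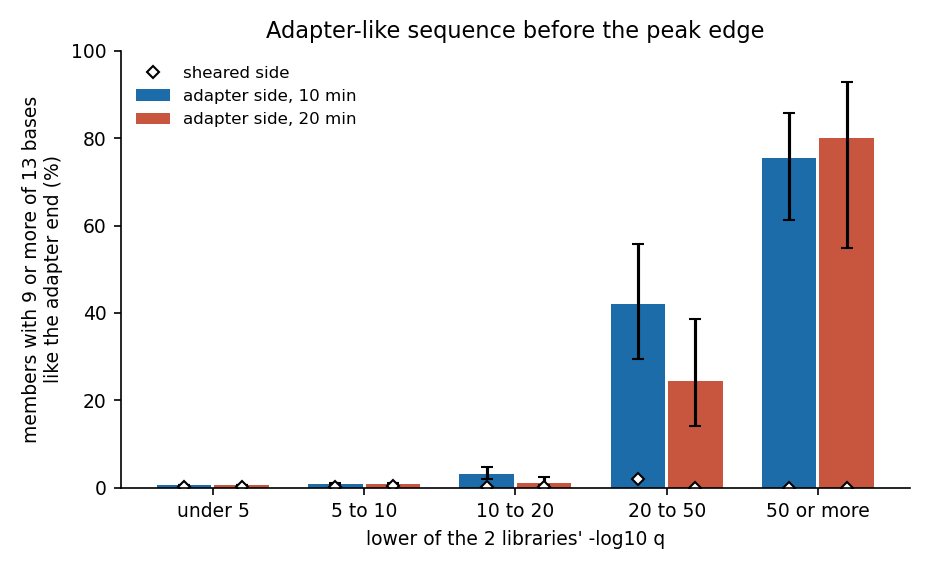
Share of members (percent) with 9 or more of 13 bases like the adapter end before the adapter-side edge, by the lower −log10 q of both libraries, at 10 min (blue) and 20 min (red), with 95% Wilson intervals. White diamonds give the sheared edge of the same members. The share stays under 5% up to a −log10 q of 20 and reaches 75.6% and 80% at 50 or more. The 13 bases were themselves taken from members of the highest −log10 q.

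Strong members without such sequence are given for comparison. These are members with at most 5 of the 13 bases, edges within 1 bp in both replicates and the best such rank of their time and strand, chosen after their values were seen. Capitals mark the last base before the edge and the first base of the peak.
MIDEAS (chr14:74239114-74239173, plus strand, intron, 10 min): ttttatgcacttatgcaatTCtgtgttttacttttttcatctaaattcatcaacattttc
PCDH7 (chr4:30831882-30831941, minus strand, intron, 10 min): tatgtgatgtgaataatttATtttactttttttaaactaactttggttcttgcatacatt
FGD6 (chr12:95598032-95598091, plus strand, intron, 20 min): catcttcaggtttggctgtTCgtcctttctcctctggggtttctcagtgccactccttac
IGFBP5 (chr2:217547270-217547329, minus strand, intron, 20 min): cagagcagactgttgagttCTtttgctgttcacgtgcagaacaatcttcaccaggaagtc

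The −log10 q of these was 39.3 and 22.9 in replicates 1 and 2 for MIDEAS, 38.2 and 35.6 for the protocadherin gene PCDH7, 89.7 and 46.2 for FGD6 and 37.9 and 19.9 for IGFBP5, which encodes a binding protein of insulin-like growth factors. Over all members the last base before the edge was T in 43.3 to 46.9% over the 4 libraries and G in 9.36 to 9.91%, against 34.1 to 34.8% T and 16.7 to 17.2% G at the sheared edge. The second base of the peak was T in 42.4 to 49.0% and A in 10.3 to 15.3%, against 29.4 to 29.7% T at the sheared edge. The bases at the adapter-side edge were therefore more uneven than those at the sheared edge in each library, and 30.8% of bases on the coding strand of gene bodies were T. The adapter-side edge fell on the same base in both replicates in 1.15% of members at 10 min and 1.36% at 20 min, against 0.252% and 0.532% for the sheared edge, and the median distance between replicates was 107 and 114 bp.

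The 4 lists differed in length. The libraries held 1418625 and 1051610 peaks at 10 min and 1221845 and 575098 at 20 min, and CPT10 replicate 1 stood apart with 826744 reverse against 591881 forward peaks. Its own solitary peaks in gene bodies were forward in 40.1%, against 50.3 to 50.4% in the other 3 libraries, and members at 10 min were forward in 42.5%, against 50.6% at 20 min. Orientation was therefore measured with an odds ratio in which a longer list of either strand cancels. It is the number of forward members in plus-strand genes times reverse members in minus-strand genes, divided by forward members in minus-strand genes times reverse members in plus-strand genes. A value above 1 means that peaks favoured the strand of the gene, so that the captured duplex lay toward the 3′ end of the gene. Tests on members cover counting error only, since neighbouring peaks are not independent, and the spread comes from the solitary peaks of each library on its own.

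Peaks on the strand of the gene outnumbered peaks on the opposite strand at both times. At 10 min 47.9% of members in plus-strand genes and 37.0% of members in minus-strand genes were forward, an odds ratio of 1.56 (95% interval 1.51 to 1.61, Fisher's exact p = 2.54e-170). At 20 min the shares were 56.4% and 44.4%, an odds ratio of 1.62 (1.56 to 1.69, Fisher's exact p = 1.17e-123). The ratio was above 1 on 22 of 22 chromosomes at both times and was lowest on chromosome 10, at 1.09 and 1.06. Over the solitary peaks of single libraries it was 1.33 and 1.27 for CPT10 and 1.34 and 1.36 for CPT20, with means of 1.30 ± 0.04 and 1.35 ± 0.01 (SD, n = 2 each). The difference between the times in log2 odds ratio was 0.05 (two-sided exact permutation p = 0.333, the smallest that 2 against 2 libraries allow). Counting each gene once, 4442 of 7796 genes with unequal counts had more same-strand members at 10 min and 3943 of 6950 at 20 min. When the lists were first limited to a −log10 q of at least 10 and solitary peaks called anew, there were 883 and 680 members. The ratio was then 1.04 (Fisher's exact p = 0.787) and 1.22 (Fisher's exact p = 0.22).

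Orientation turned along the gene. The stretch between the limits of each gene was divided into 5 equal parts from 5′ to 3′. In the first of these the odds ratio was 0.745 at 10 min and 0.615 at 20 min, so members there lay more often on the strand opposite to the gene. It was 1.05 and 0.898 in the second part, 1.54 and 1.57 in the third, 2.34 and 3.10 in the fourth and 3.51 and 4.45 in the last. In numbers of members at 10 min, 6038 same-strand and 7021 opposite-strand members in the first part became 8204 and 4466 in the last. The total density barely moved, between 63.9 and 66.2 members per Mb at 10 min and between 37.7 and 39.8 at 20 min, so the strands exchanged places while their sum stayed level. In single libraries the log2 odds ratio was higher in the last part than in the first by 1.47 on average (1.15 to 2.00, higher in 4 of 4 libraries). The two-sided exact sign-flip permutation p was 0.125, the smallest that 4 libraries allow. The share of T on the coding strand fell from 31.3% to 30% between these parts, and its part in the turn was not tested.

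**Figure D2:**
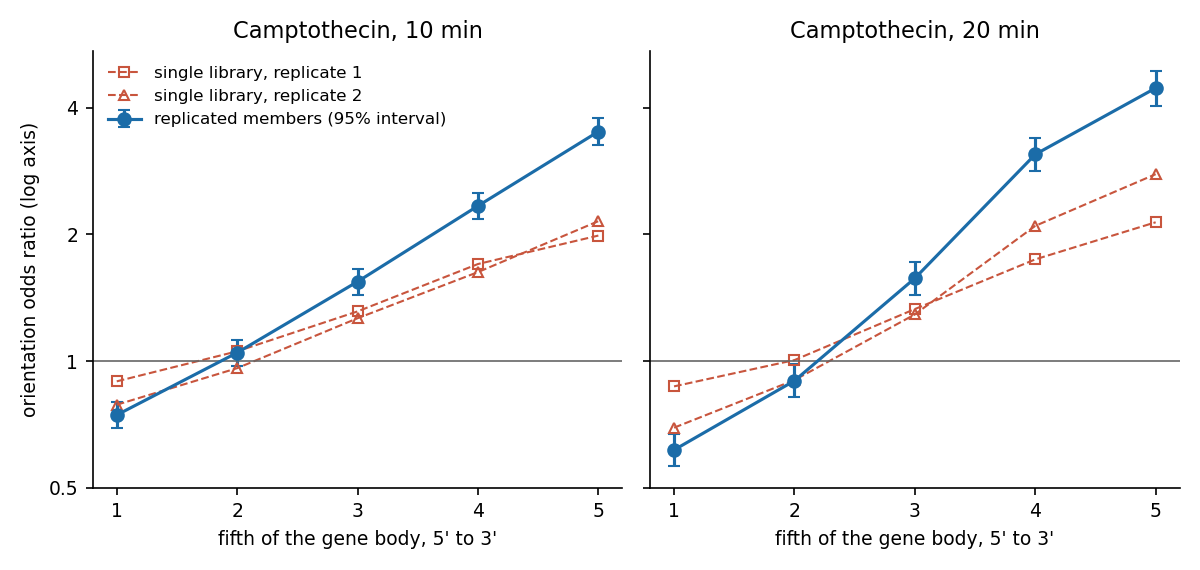
Orientation odds ratio (log axis) in 5 equal parts of the gene body from 5′ to 3′, at 10 min (left) and 20 min (right). Blue points are replicated members with 95% intervals, red open symbols are solitary peaks of each library on its own, and the grey line marks 1. The ratio goes from 0.745 to 3.51 at 10 min and from 0.615 to 4.45 at 20 min, and each library rises from under 1 to about 2 or more.

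The turn was widest in long genes. In the 309 genes over 500 kb the odds ratio went from 0.562 in the first part to 5.33 in the last at 10 min and from 0.292 to 8.63 at 20 min. In the 5364 genes of 15 to 50 kb it went from 1.59 to 1.79 and from 1.56 to 1.89, so short genes favoured their own strand already in the first part. That part begins over 10 kb from the 5′ end, and the first 10 kb were not split by gene length. The difference between length classes was not tested. Density fell with gene length, from 77.4 to 58.0 members per Mb at 10 min and from 55.4 to 29.8 at 20 min between these classes. By distance from the 5′ end, the ratio was 1.10 at 10 to 20 kb and 3.54 beyond 500 kb at 10 min, and 1.19 and 5.26 at 20 min. Of the members as first defined, those with a −log10 q of 10 or more in both libraries turned as well. Their ratio went from 0.441 to 3.12 at 10 min (769 members) and from 0.181 to 5.31 at 20 min (563 members).

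The genes with the most members differed in whether they turned. CSMD3, a gene of a large membrane protein with CUB and sushi domains, held the most, 244 at 10 min and 111 at 20 min. It lies on chromosome 8, the densest chromosome at 10 min with 116 members per Mb. Its 204 members per Mb at 10 min stood beside 190.5 solitary peaks per Mb in its flanks. It had 86 same-strand and 49 opposite-strand members on the 5′ side of the middle of its body and 75 and 34 on the 3′ side at 10 min, with no turn, and 25 and 28 followed by 42 and 16 at 20 min. ZFPM2, which encodes a cofactor of GATA transcription factors, held 40 same-strand and 61 opposite-strand members on the 5′ side and 91 and 28 on the 3′ side at 10 min, and 21 and 28 against 43 and 6 at 20 min. VPS13B, a gene of a lipid transfer protein, went from 17 same-strand and 58 opposite-strand members to 59 and 22 at 10 min. RIMS2, a gene of a presynaptic scaffold, kept an excess of opposite-strand members on both sides, 15 and 68 followed by 25 and 61. Flanks were not counted for ZFPM2, VPS13B and RIMS2. Among genes with at least 20 members, and at least 5 on each side, 187 of 654 at 10 min went from mostly opposite-strand to mostly same-strand, and 34 went the other way. In 254 both sides were mostly same-strand and in 122 mostly opposite-strand. At 20 min the numbers were 93, 13, 84 and 34 of 247 genes.

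**Figure D3:**
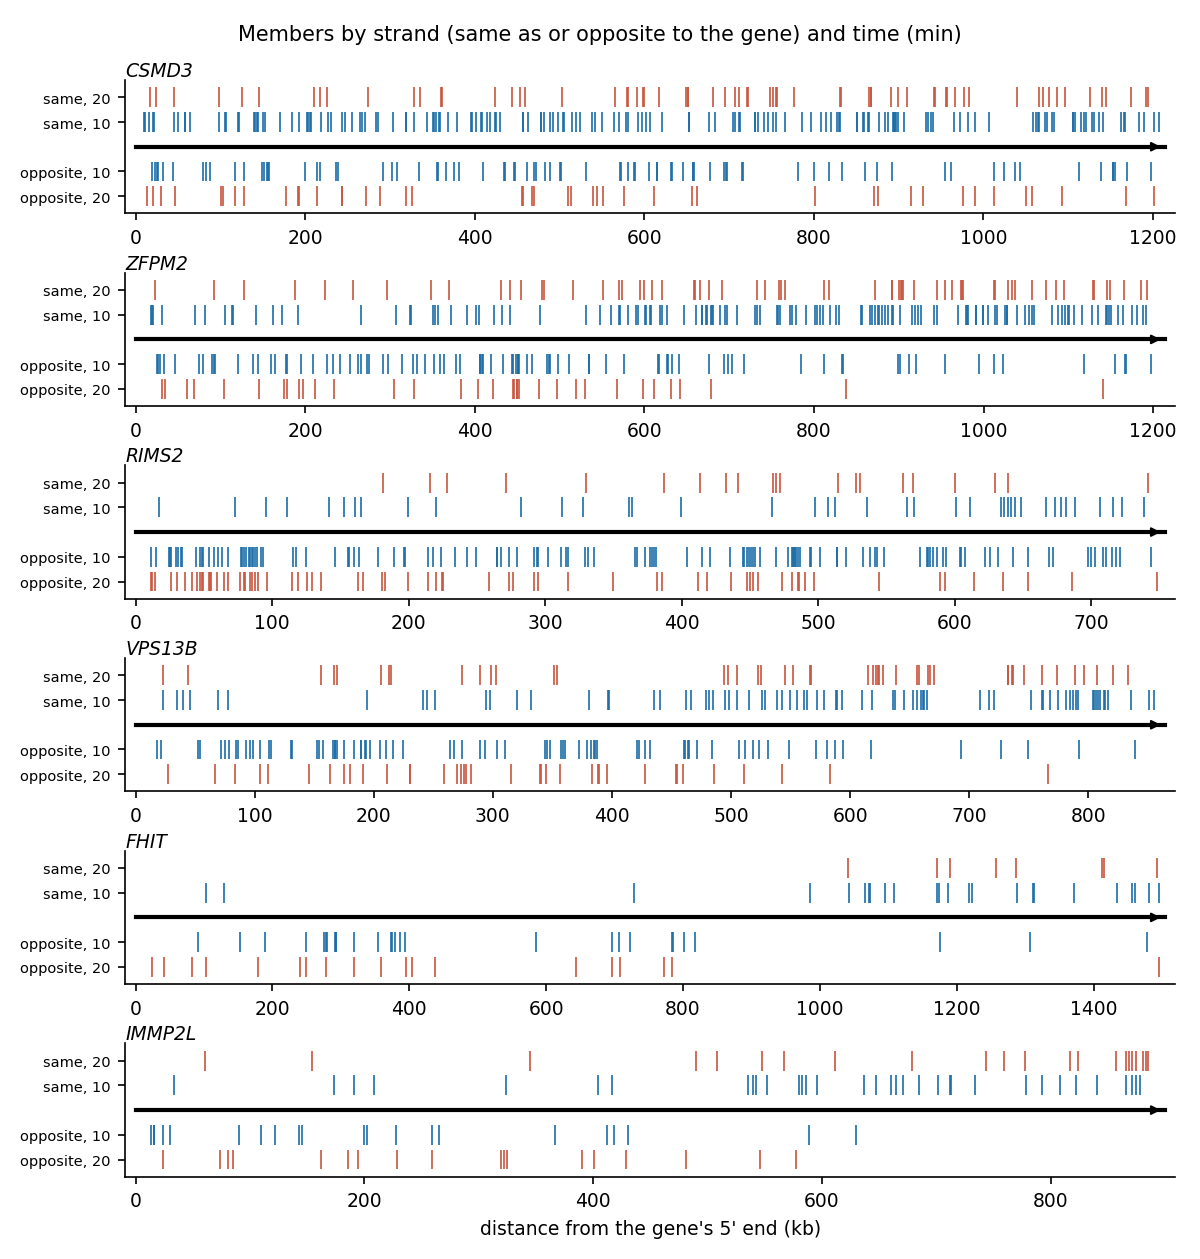
Members along the 4 genes with the most members at 10 min and 2 genes of common fragile sites, as distance from the 5′ end of the gene (kb). Ticks above the black line lie on the strand of the gene and ticks below on the opposite strand, at 10 min (blue) and 20 min (red). In FHIT, IMMP2L, ZFPM2 and VPS13B opposite-strand members crowd the 5′ part and same-strand members the 3′ part, whereas RIMS2 keeps more opposite-strand members throughout. FHIT and IMMP2L were picked by name. NAALADL2, a fragile site gene not drawn, kept more opposite-strand members on both sides of its middle.

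Neighbouring members shared a strand. Of 55535 pairs of successive members in the same gene at 10 min, 61.7% (95% Wilson interval 61.3 to 62.1%) lay on the same strand, against 51.1% if the strands were mixed in the proportions observed. At 20 min the share was 65.9% (65.4 to 66.4%) of 30773 pairs, against 50%. For pairs less than 1 kb apart the share was 71.2% and 76.3%. Solitary peaks were chosen without a close opposite-strand peak, which removes opposite-strand pairs at short distance. The share under 1 kb therefore cannot be read against mixed strands, and the shares over all pairs include these pairs. At 1 to 5 kb the share was 64.1% and 68.7%, and it was still 56.8% (54.5 to 59.1%) and 61.9% (60.0 to 63.8%) at 50 to 100 kb. Beyond 100 kb it was 53.2% (45.7 to 60.5%) and 58.9% (55.2 to 62.5%). Over all solitary peaks of single libraries, which lie closer together, the share was lower, at 57.6 to 62.1% under 1 kb and 50 to 56.7% at 20 to 50 kb. At 50 to 100 kb it was 44.6 to 56.0%, over 49 to 88 pairs a library.

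**Figure D4:**
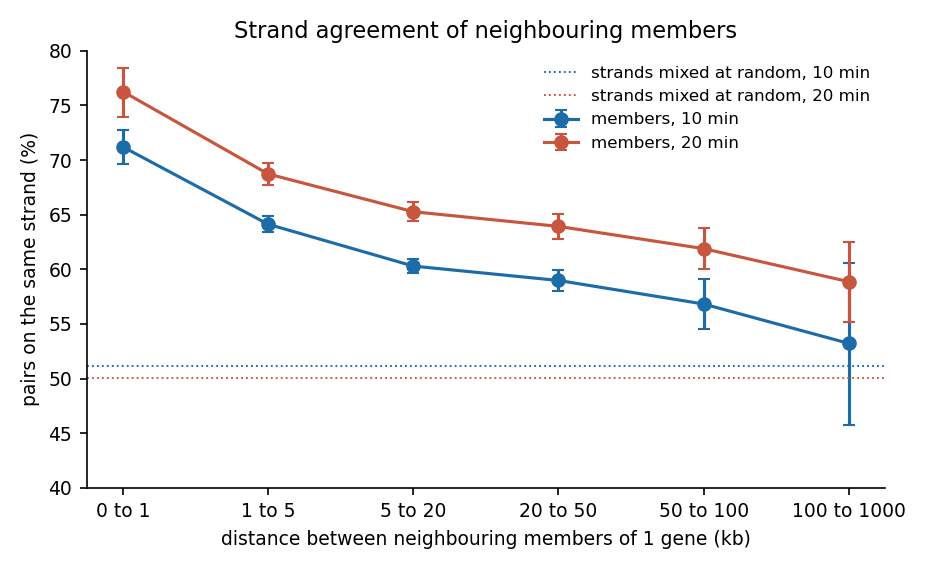
Share of neighbouring members of the same gene that lie on the same strand (percent), by the distance between them (kb), at 10 min (blue) and 20 min (red), with 95% Wilson intervals. Dotted lines give the share for strands mixed in the proportions observed. The share is 71.2% and 76.3% under 1 kb, where the choice of solitary peaks removes opposite-strand pairs. It falls from 64.1% and 68.7% at 1 to 5 kb to 56.8% and 61.9% at 50 to 100 kb.

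Strand bias was then tested gene by gene on the solitary peaks of each library, for 4255 genes with a mean of at least 20 such peaks per library. The measure was the log2 ratio of same-strand to opposite-strand peaks, each plus 2, centred for the ratio of forward to reverse peaks of the library. With limma and Benjamini-Hochberg adjustment, 1447 genes (34%) were biased toward their own strand and 784 (18.4%) toward the opposite strand at an adjusted p under 0.05, and the median gene had a log2 ratio of 0.19. Neighbouring genes can lie in the same run of peaks and are not independent. The gene ratios of 2 libraries correlated with a Pearson's r of 0.72 to 0.75 among CPT10 replicate 2 and both CPT20 libraries and of 0.54 to 0.57 between CPT10 replicate 1 and the others, over 4255 genes. These libraries share the reference genome. Without CPT10 replicate 1 the test called 1510 genes, and without CPT10 replicate 2 it called 1300.

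The 5 genes with the smallest p toward their own strand were DLGAP1, NSMCE2, TENM2, RORA and STXBP4. DLGAP1, a postsynaptic scaffold gene of chromosome 18 (3496030 to 4455307, minus strand), had 297 same-strand and 83 opposite-strand solitary peaks in the first CPT10 library, 233 and 84 in the second, and 251 and 79 followed by 172 and 40 in the CPT20 libraries. Its centred log2 ratio was 1.61 ± 0.11 (SE, n = 4 libraries, limma adjusted p = 1.74e-29). The size of this p moved with the setting. The limma adjusted p was 2.11e-07 at a minimum −log10 q of 3 and 9.03e-63 with replicate number as a block. NSMCE2, the SUMO ligase of the SMC5/6 complex on chromosome 8 (126103921 to 126379362, plus strand), had 114 and 57, 122 and 41, 135 and 33, and 123 and 11 in the same order of libraries, a ratio of 2.06 ± 0.15 (limma adjusted p = 1.77e-27). Same-strand peaks were in excess in each of these libraries. RORA, a nuclear receptor gene of chromosome 15 (60780483 to 61521501, minus strand), had 216 and 51, 175 and 44, 169 and 52, and 84 and 18, a ratio of 1.81 ± 0.14. TENM2, a teneurin adhesion gene, reached 1.32 ± 0.10 and STXBP4, which encodes a syntaxin-binding protein, 2.25 ± 0.18. Members come from the same lists that chose these genes, so they are no separate support. At 10 min same-strand members were 57 of 70 in DLGAP1, 55 of 66 in NSMCE2 and 53 of 73 in TENM2. They were 33 of 35 in RORA and 40 of 46 in STXBP4.

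The 5 genes with the smallest p toward the opposite strand were TRAPPC9, SORCS3, NEBL, CFAP58 and DCDC2C. TRAPPC9, which encodes a subunit of a vesicle tethering complex, lies on chromosome 8 (140739968 to 141468678, minus strand). It had 165 same-strand and 215 opposite-strand solitary peaks in the first CPT10 library, 104 and 255 in the second, and 112 and 258 followed by 52 and 163 in the CPT20 libraries. Its centred log2 ratio was -1.24 ± 0.11 (SE, n = 4 libraries, limma adjusted p = 2.92e-21). SORCS3, a sorting receptor gene of chromosome 10 (106401048 to 107025000, plus strand), had 86 and 236, 73 and 252, 85 and 179, and 44 and 133, a ratio of -1.32 ± 0.12. CFAP58, a cilium gene upstream of it on the same strand (106113591 to 106214860), reached -2.11 ± 0.23, and none of its 15 members at 10 min or 10 at 20 min lay on its own strand. NEBL, the gene of the actin-binding protein nebulette, reached -1.47 ± 0.15 and DCDC2C -2.34 ± 0.25. In TRAPPC9 the excess lay on the 5′ side of the middle, with 8 same-strand and 50 opposite-strand members at 10 min, against 22 and 20 on the 3′ side.

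**Figure D5:**
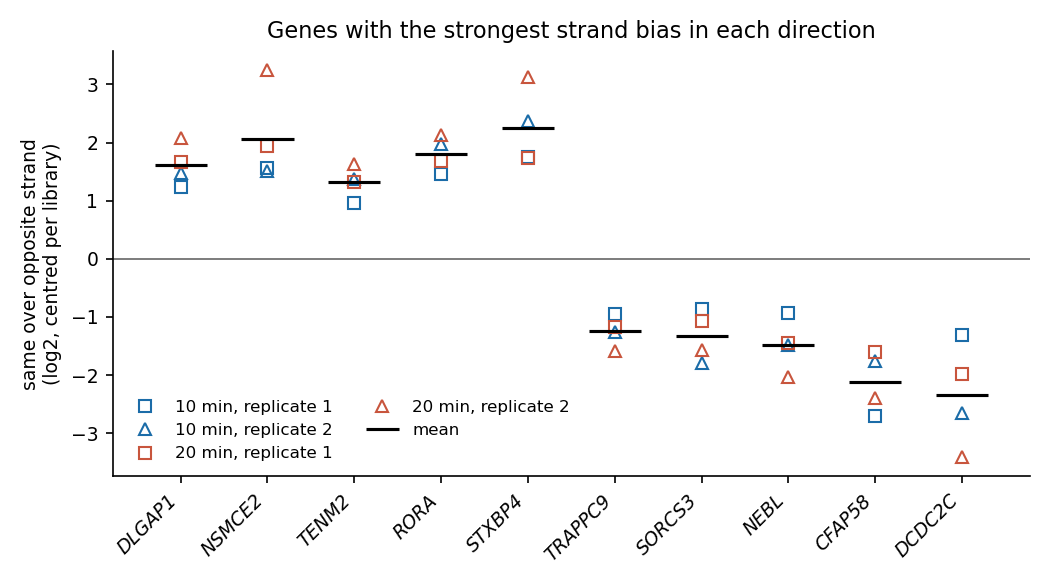
Log2 ratio of same-strand to opposite-strand solitary peaks, centred per library, in the 5 genes with the smallest p in each direction. Symbols are the 4 libraries (squares replicate 1, triangles replicate 2, blue 10 min, red 20 min) and bars the mean. All libraries lie above 0 in the first 5 genes and below 0 in the last 5.

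Density differed widely between genes. Of the 4643 genes with at least 50 kb of counted body the median was 57.9 members per Mb at 10 min and 33.6 at 20 min. The highest at both times were HMGA2, SMURF2, TCF7L2, ARFGEF1, MBTD1 and NSMCE2. HMGA2, a gene of an architectural chromatin protein on chromosome 12 (66218240 to 66360071), held 378 and 339 members per Mb, against 101 and 69 solitary peaks per Mb in the 1 Mb on either side. TCF7L2, the transcription factor of the Wnt pathway on chromosome 10 (114710006 to 114927437), held 282 and 296, with 168 and 140.5 beside it. SMURF2, a ubiquitin ligase gene, held 362 and 286, ARFGEF1, which encodes an exchange factor for ARF GTPases, 314 and 270, the chromatin reader gene MBTD1 354 and 266, and NSMCE2 253 and 276, each with 160 to 186 and 118 to 132 in its flanks. So the 6 genes exceeded flanks that were themselves above the median gene. These dense genes did not share an orientation. Opposite-strand members were 33 of 48 in HMGA2 and 33 of 38 in SMURF2 at 10 min, whereas same-strand members were 41 of 43 in ARFGEF1 and 55 of 66 in NSMCE2. By chromosome the density was highest on chromosomes 8 and 17, at 116 and 112 members per Mb at 10 min and 69.8 and 80 at 20 min, and between 48.2 and 79.3 and between 27.1 and 50.6 on the others.

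At the low end, INPP5A, an inositol phosphatase gene, and TCERG1L, both on chromosome 10, and the readthrough gene LINC02210-CRHR1 on chromosome 17 held no member at either time in 231, 204 and 154 kb of counted body. The flanks of INPP5A held 3.28 and 4.92 solitary peaks per Mb and those of TCERG1L 5.26 and 6.84, so these genes lay in sparse regions, whereas the flanks of LINC02210-CRHR1 held 47.0 and 39.5. Single libraries still had solitary peaks in INPP5A, 48 and 28 for CPT10 and 54 and 11 for CPT20.

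The gene lists were compared by counts and medians. The 20 synaptic and neuronal adhesion genes, little used by epithelial cells, held 59.5 members per Mb at 10 min and 24.9 at 20 min. Of these, 6 and then 1 were above the median of all genes, and the solitary peaks per Mb of single libraries, relative to all gene bodies, were 0.972 and 1.01 at 10 min and 0.832 and 0.956 at 20 min. The 20 chromatin and ubiquitin regulators, used by most cells, held 76.5 and 57.2 per Mb, with 12 and then 13 of 19 above the median, and their relative density in single libraries was 1.08 and 1.14 at 10 min and 1.10 and 1.23 at 20 min. The list of junction, adhesion and cytoskeleton genes of epithelial cells (19 with a body) held 66.9 and 50.9, and 7 and then 14 were above the median. Their relative density in single libraries was 1.00 and 1.03 at 10 min and 1.02 and 1.13 at 20 min. This list also holds TCF7L2, a transcription factor gene, which gave 57 of its 510 members at 10 min and 60 of 388 at 20 min. The 12 common fragile site genes held 51.9 and 24.2, with 4 and then 1 above the median and a relative density of 0.909 and 0.916, then 0.781 and 0.881. The number of genes above the median was thus smaller at 20 min in the neuronal and fragile site lists and larger in the epithelial list and, by 1 gene, in the chromatin list. No list was tested, and the lists were not matched for gene length. The counted bodies were 28.3 Mb in 20 neuronal genes and 18.1 Mb in 12 fragile site genes, against 3.72 Mb in 20 chromatin genes. All genes over 500 kb held 58.0 members per Mb at 10 min and 29.8 at 20 min. In the gene tests the log2 change relative to all genes had a median of -0.19 in the neuronal list, -0.17 in the fragile site list, 0.05 in the chromatin list and 0.03 in the epithelial list. LRP1B, DLG2 and CNTNAP2 belong to both the neuronal and the fragile site list.

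Orientation within the lists was read beside all genes. Of the epithelial genes tested, 3 of 19 (PTPRM, UTRN and PTPRF) were biased toward their own strand and 7 (AKAP13, CTNNA1, MAGI1, PTK2, TCF7L2, LAMA3 and DST) toward the opposite strand, beside 34% and 18.4% of all genes. The odds ratio of their members was 0.60 (0.419 to 0.859) at 10 min and 0.496 (0.329 to 0.749) at 20 min, and over all solitary peaks of single libraries it was 0.904 and 0.780 for CPT10 and 0.841 and 0.768 for CPT20. TCF7L2 gave 46 of the 293 opposite-strand members of this list at 10 min and 39 of 225 at 20 min. The ratio without TCF7L2 was not computed. The members' odds ratio in the chromatin list was 0.821 (0.510 to 1.32) and 1.37 (0.791 to 2.37), with both intervals spanning 1. In the neuronal list it was 1.71 (1.4 to 2.08) and 1.63 (1.21 to 2.2), and in the fragile site list 1.95 (1.49 to 2.54) and 1.26 (0.861 to 1.84). Over all genes longer than 500 kb it was 1.68 (1.57 to 1.80) and 1.71 (1.56 to 1.88). Of 19 chromatin genes, 8 and 7 were biased in these directions, of 20 neuronal genes 11 and 2, and of 12 fragile site genes 7 and 1. PTK2, the focal adhesion kinase gene, held 206 and 185 members per Mb and went from 4 same-strand and 31 opposite-strand members on its 5′ side to 21 and 12 on its 3′ side at 10 min. USP34, a deubiquitinase gene, held 160 and 149 per Mb against 67 and 48.5 in its flanks, with 37 of 43 members same-strand at 10 min. At the low end of their lists PTPRF, a receptor phosphatase gene, held 47.9 and 12.0 per Mb and JARID2, a cofactor of Polycomb repressive complex 2, 34.5 and 15.3.

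Among the neuronal genes CSMD3 was highest, at 204 and 92.6 members per Mb, with 190.5 and 106.5 solitary peaks per Mb in its flanks. GRIK2, a kainate receptor gene, followed at 62.5 and 31.7, and OPCML, a cell adhesion gene, was lowest at 33.6 and 10.9. The fragile site genes IMMP2L, a mitochondrial peptidase gene, and NAALADL2 held 64.7 and 47.0 and 65.6 and 25.1, and FHIT, the tumour suppressor gene at the FRA3B site, 34.9 and 18.1. FHIT had 3 same-strand and 21 opposite-strand members on its 5′ side and 21 and 7 on its 3′ side at 10 min, and 0 and 16 followed by 8 and 3 at 20 min. IMMP2L had 7 and 19 followed by 27 and 2, and 3 and 15 followed by 19 and 3. In FHIT the strands nearly cancelled over the whole gene, with a centred log2 ratio of -0.09 ± 0.10 (SE, n = 4 libraries, limma adjusted p = 0.479).

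Fewer members were found at 20 min, 38.9 against 64.9 per Mb, but the lists of 20 min were also shorter. With each list limited to its 280878 highest peaks of chromosomes 1 to 22 by −log10 p, the density was 21.8 at 10 min and 23.5 at 20 min. Per 100000 peaks of a library, 29813 and 31721 at 10 min and 30481 and 33467 at 20 min were solitary peaks in gene bodies, a log2 ratio of 0.06 (two-sided exact permutation p = 0.667) that was -0.01 without CPT20 replicate 2. No gene passed the test between the times in limma (0 of 4255 higher and 0 lower, or 0%, at an adjusted p under 0.05, and 36 and 48 at an unadjusted p under 0.05). Without CPT20 replicate 1 the test called 8 genes. Among the smallest unadjusted p values were those of REEP1, which encodes a protein that shapes the endoplasmic reticulum, ZMAT4, the centrosome gene KIZ and the phosphodiesterase gene PDE10A, with lower density at 20 min, and of the laminin gene LAMC1, the kinase gene LRRK1 and the receptor gene LGR6, with higher density. REEP1 had 449 and 358 solitary peaks per Mb at 10 min and 238 and 73.3 at 20 min, a log2 change of -0.98 ± 0.28 (SE, limma adjusted p = 0.998), and 15 members at 10 min against 1 at 20 min. LAMC1 had 383 and 252 at 10 min and 485 and 280 at 20 min, a log2 change of 0.70 ± 0.23 (SE, limma adjusted p = 0.998).

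The overlap of members between the times was counted in gene bodies only. No share over all solitary peaks can be set beside it. Members of each time had been chosen without a close opposite-strand peak at that time, which can lower the overlap between opposite strands. The opposite-strand share is therefore no baseline for the same-strand share. Of 64212 members at 10 min, 7.12% (95% Wilson interval 6.93 to 7.32%) overlapped a same-strand member at 20 min and 1.09% (1.01 to 1.17%) an opposite-strand member. The members found again had an odds ratio of 1.964, against 1.53 for the others, with 0.444 in the first of the 5 parts and 10.5 in the last. Of 38538 members at 20 min, 11.8% and 1.82% overlapped same-strand and opposite-strand members at 10 min.

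Gene bodies were set beside the ends of the same genes. In the 10 kb at the 5′ end the odds ratio of solitary peaks was 0.745 at 10 min and 0.645 at 20 min, with 93.7 and 80.4 per Mb, and in the 5 kb at the 3′ end it was 2.2 and 2.60, with 72.2 and 50.5 per Mb. The log2 odds ratio of gene bodies was above that of 5′ ends by 0.55 and below that of 3′ ends by 0.30 on average, each in 4 of 4 libraries (two-sided exact sign-flip permutation p = 0.125, the smallest possible). Gene bodies thus lay between the ends of the genes in orientation. Over 50 kb from any annotated gene the density was 62.3 and 31.5 per Mb. The log2 ratio of gene bodies to this sequence was 0.04 over single libraries (-0.02 to 0.18, exact sign-flip permutation p = 0.625).

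Within gene bodies, 4.42% of members at 10 min and 5.34% at 20 min had their midpoint in an exon, which made up 4.20% of the bases. The density in exons was 1.05 and 1.29 times that in introns. In single libraries this ratio averaged 1.05 with an SD of 0.0039 at 10 min and 1.11 with an SD of 0.0054 at 20 min (n = 2 each), and it was above 1 in 4 of 4 libraries (exact sign-flip permutation p = 0.125). The odds ratio was 1.45 in exons and 1.57 in introns at 10 min and 1.58 and 1.62 at 20 min. GC content in the window around the midpoint averaged 40.1% and 40.8%, against 41.0% of gene body bases.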

How the data were processed

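END-seq peaks of 4 treated libraries were analysed, a forward and a reverse list each. Per the labels and the study's methods, reads were trimmed with Trim Galore and aligned to hg19 with Bowtie2, and the authors called peaks with MACS2, separately by strand in every library, against control samples. Replicates were not pooled and duplicates were kept. The deposited lists give a score, the fold enrichment of the summit as a ratio, its −log10 p-value and q-value, and a summit offset. Values served to rank and filter peaks. The lists hold no read totals. The study reports numbers of sequenced and mapped reads for its END-seq libraries, but these were not used here, and list length stands in for read depth.

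Gene bodies came from GENCODE on GRCh37, 989.6 Mb in 11575 genes. Unknown bases were left out. Gene tests used limma 3.58.1 in R 4.3.3, with a trend and a pseudocount of 2 peaks; other tests used SciPy 1.17.1. Scripts were tested on simulated data. Replicates are biological per the study's methods. The members, gene lists and tests were chosen with earlier results of these data known. Peaks named had the best rank of their time and strand, counting the poorer library; genes named were the 6 densest and 3 sparsest, the 5 most biased each way, the 4 most changed each way, and the 2 densest and 1 sparsest of each list. Some genes that this rule selects are not reported here. Intervals cover counting error only.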

Additional observations from a re-analysis of the deposited data

How the results depend on the processing

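Among the alternatives run, the direction of the orientation was kept at both times, with odds ratios of 1.44 to 1.65 at 10 min and 1.5 to 1.67 at 20 min apart from the strictest threshold (1.04 and 1.22 at a −log10 q of 10 or more), of 1.27 to 1.33 and 1.34 to 1.36 with only 1 library, and of 1.32 and 1.31 as a ratio of genes with 1 vote each. Members per Mb depended on the lists. They were 27.8 and 22.2 at a minimum −log10 q of 3, 0.892 and 0.687 at 10, 24.5 and 15.1 when peaks had to share 50% of their length, and 21.8 and 23.5 with lists of equal length. The share of 10 min members found again at 20 min was 7.97%, 11.6%, 2.45% and 8.99% under these settings, 6.92% with 500 bp to an opposite-strand peak and 6.74% with limits of 20 and 10 kb. The log2 ratio of solitary peaks in gene bodies per library, 20 over 10 min, ran from -0.01 to 0.12 when 1 library was left out, being -0.013 without CPT20 replicate 2, and was -0.0025 with lists of equal length. Genes with a strand bias numbered 1300 with a mean of at least 40 peaks (2271 genes tested) and 1300 to 2281 when 1 library was left out. Genes that differed between the times numbered 0 to 8 then, with 8 without CPT20 replicate 1. Leaving out peaks beside adapter-like sequence, chosen after seeing the data, gave 2203 genes with a strand bias. The causes were not tested.

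Per the study's methods, each of 2 experiments held libraries of untreated cells and of both times, but the labels do not tie the replicate number to them. From 10 to 20 min the odds ratio and the number of solitary peaks in gene bodies per peak of the library were higher in both same-numbered pairs. The deviations of same-numbered libraries from the group means correlated with r = 0.27 for density and 0.12 for strand bias over 4255 genes, which has no error estimate with 2 pairs. With the replicate block the gene test called 2353 genes with a strand bias, against 2231 without it, and 0 between the times, the log2 ratio of solitary peaks per library was 0.05 and the difference in log2 odds ratio 0.05. With 2 libraries per time the exact permutation tests allow no p under 0.333, so they say nothing about stability. This limit does not apply to limma.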
